A study of Mus musculus with 2 samples.

Results

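Mt1 and Mt2, the metallothionein genes expressed in mouse liver, were described together with 4 zinc transporter genes, the exporters Slc30a10 and Slc30a1 and the importers Slc39a14 and Slc39a4. These 6 genes of the 27998 in the count matrices were chosen by measured values, namely the 48 h over 0 h levels of Mt1 and Mt2 in barcodes rich in mitochondrial transcripts after partial hepatectomy, so the 48 h over 0 h values of the members are a description and carry no test. Single-cell RNA-Seq (scRNA-Seq) was run on liver hepatocytes isolated by collagenase perfusion in 2 steps from C57BL/6 mice of 10 to 12 weeks of age on a normal diet. In partial hepatectomy (PHx) lobes of the liver are cut away and the remnant grows back. The groups were undamaged liver (0 h) and liver taken 48 h after the surgery (PHx48h), with 1 library each. Cells were captured in droplets that tag transcripts with a barcode and each molecule with its own identifier, the UMI, by which molecules rather than reads were counted. With 1 library per group there is no replicate check, and every interval given here is a 95% interval that covers counting error only. Differences between the libraries therefore cannot be told apart from differences between animals, cell isolations or library preparations.

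Metallothioneins are small, cysteine-rich proteins that bind zinc and copper in the cytosol, and the liver makes large amounts of them when zinc, glucocorticoids or inflammatory signals rise. The zinc-sensing transcription factor MTF-1 switches their genes on through metal response elements in the promoter, and it also acts on the zinc exporter gene Slc30a1. Transporters of the SLC30 family move zinc out of the cytosol and those of the SLC39 family move it in. Slc39a14 is known as a liver importer of zinc, manganese and non-transferrin-bound iron that rises in the acute-phase response, and Slc30a10 is known mainly as an exporter of manganese.

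In the GRCm38 annotation, Mt1 lies on chromosome 8 at chr8:94179082-94180327 and Mt2 at chr8:94172664-94173568, both on the plus strand with 5513 bases between them. Their transcripts of 549 and 511 bases share no identical run longer than 20 bases. Slc30a10 (chr1:185454848-185468762) and Slc30a1 (chr1:191906767-191913247) lie on the plus strand of chromosome 1, Slc39a14 on the minus strand at chr14:70303469-70351425, and Slc39a4 on the minus strand at chr15:76612383-76617384. The RefSeq promoter table (GRCm38.p6) held 4 of the 6 members. The 250 bases before each start are printed 5′ to 3′ on the plus strand, because metal response elements are known in the metallothionein genes and in Slc30a1, and the metallothioneins and exporters are set side by side in the values that follow. Capitals mark matches to the core of the metal response element (TGCACNC or TGCGCNC, searched on both strands), and 2 matches that overlap on opposite strands in Slc30a10 appear as 1 run of capitals.
Mt1, chr8:94178839-94179088, plus strand: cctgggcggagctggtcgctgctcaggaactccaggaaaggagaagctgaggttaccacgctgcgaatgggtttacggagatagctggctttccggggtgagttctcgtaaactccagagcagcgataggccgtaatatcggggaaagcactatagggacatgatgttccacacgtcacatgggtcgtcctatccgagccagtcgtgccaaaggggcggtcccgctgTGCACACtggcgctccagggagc
Mt2, chr8:94172368-94172617, plus strand: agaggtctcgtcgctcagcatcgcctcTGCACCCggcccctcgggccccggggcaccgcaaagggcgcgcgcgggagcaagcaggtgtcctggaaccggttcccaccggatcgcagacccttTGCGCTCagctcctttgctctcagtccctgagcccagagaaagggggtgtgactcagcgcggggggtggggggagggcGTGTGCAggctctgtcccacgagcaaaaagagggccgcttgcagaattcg
Slc30a10, chr1:185454598-185454847, plus strand: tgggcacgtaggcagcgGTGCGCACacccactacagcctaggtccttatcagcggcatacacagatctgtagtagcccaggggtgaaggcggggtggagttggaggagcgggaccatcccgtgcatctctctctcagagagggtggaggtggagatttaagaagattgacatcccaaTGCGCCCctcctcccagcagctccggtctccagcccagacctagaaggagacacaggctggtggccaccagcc
Slc30a1, chr1:191906531-191906780, plus strand: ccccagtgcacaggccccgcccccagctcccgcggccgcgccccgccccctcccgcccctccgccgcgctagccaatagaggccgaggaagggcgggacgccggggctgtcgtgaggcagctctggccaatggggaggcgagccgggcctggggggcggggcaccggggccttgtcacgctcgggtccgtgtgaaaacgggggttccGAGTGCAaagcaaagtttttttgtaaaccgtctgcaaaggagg
Mt2 and Slc30a10 each held 3 matches, and Mt1 and Slc30a1 each held 1. At least 1 match was found in 21.41% of 32817 promoter windows of the same length, and at least 3 in 1.265%. None of these 4 windows held the STAT motif TTCNNNGAA, which was found in 7.015% of all windows. A match is a description of the letters and not evidence of binding, and the bases after the listed starts were not searched. For Mt1, Mt2 and Slc30a1 the RefSeq start is not the annotated gene start given above. The Mt2 window ends short of that start, and the Mt1 and Slc30a1 windows run past it. The start listed for Mt1 may be an upstream one, so that its single match may leave out elements nearer to a start downstream.

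Every barcode was placed in 1 set. The share of UMIs from the 13 mitochondrial genes was above 30% in 3870 of 59202 barcodes of the undamaged library (6.54%) and in 765 of 1586 of the PHx48h library (48.2%). Barcodes of clusters with markers of endothelial cells, macrophages, stromal cells or T or NK cells formed the other classes (637 and 114 barcodes), and the remaining barcodes were under 2% mitochondrial (52393 and 508) or between 2% and 30% (2302 and 199). Barcodes above 30% were not split by class, and 30 and 33 of them held at least 3 markers of 1 other class. Hepatocyte markers made up 157493 CPM (UMIs scaled to a total of 1000000 non-mitochondrial UMIs per set) above 30% and 118948 CPM under 2% in the undamaged library, and 137638 and 91208 CPM in the PHx48h library. These sums show hepatocyte RNA in every set and do not show that each barcode held a hepatocyte. Under 2% in the undamaged library, 3 of 4 equal groups by depth lay within 1162 to 1515 non-mitochondrial UMIs. Of the 52393 barcodes of this set, 11455 fell in unnamed clusters, most of them in clusters led by hemoglobin genes or by S100a8 and S100a9. Some undamaged clusters that passed as hepatocyte-like were also led by hemoglobin genes (5672 and 2267 barcodes) or by S100a9 and S100a8 (2210). The barcodes under 2% are therefore called by their mitochondrial share only, and the part of free RNA in their levels was not tested. Under 2% at 48 h, 3 of 4 such groups lay within 4506 to 6172 non-mitochondrial UMIs. The part of free RNA in that set was likewise not tested. The 2% to 30% set at 48 h held 28 barcodes of an unnamed cluster led by Spp1, Msln, Tspan8 and Epcam, with 26.8% of its non-mitochondrial UMIs. The summed markers of endothelial cells, macrophages and stromal cells stayed between 14.7 and 80.9 CPM in the sets above 30% and under 2%, and were thus low beside 7660 and 6481 CPM of endothelial markers in the endothelial-like barcodes. The other classes still held 67756.8 CPM of hepatocyte markers at 0 h and 37033.2 CPM at 48 h, and the part of this hepatocyte RNA in their values was not tested. Median depth above 30% was 1213.5 non-mitochondrial UMIs at 0 h and 4411 at 48 h, and under 2% it was 1413 and 5262. The libraries shared 148 barcodes, 9.33% of the PHx48h library. No doublets were removed, since the doublet caller marked 0 of 55328 undamaged barcodes and so had not worked there.

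Mt1 was low in the 3 undamaged sets made by mitochondrial share and abundant at 48 h. Above 30% mitochondrial UMIs, Mt1 stood at 6.23 CPM (4.36 to 8.63, 36 UMIs) at 0 h and at 556 CPM (536 to 577, 2837 UMIs) at 48 h. Under 2%, the level was 17.8 CPM (16.9 to 18.8) at 0 h and 1135 CPM (1098 to 1174) at 48 h. Barcodes of 2% to 30% held 21.6 CPM (17.5 to 26.5) at 0 h and 1075 CPM (1035 to 1116) at 48 h. The intervals of 0 h and 48 h were far apart in all 3 sets. In both libraries the barcodes above 30% held the lowest Mt1 level of the 3, and the intervals of the other two overlapped each other in both.

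On the log2 scale, the 48 h over 0 h ratio of Mt1 was 6.48 (6.01 to 7.0) above 30%, or 89.2-fold. The median gene of that set had a ratio of 0.59, so Mt1 lay 5.89 above it, and it ranked 25 of 7418 genes of at least 10 CPM in either library. Under 2%, the ratio was 5.99 (5.90 to 6.08), 63.6-fold and rank 28 of 6371, with a median over all genes of 0.09. At 2% to 30% it was 5.63, or 49.7-fold, and 5.73 (5.43 to 6.05) without the barcodes of unnamed clusters. The ratio above 30% rests on 36 undamaged UMIs, and its interval overlapped that of the set under 2%. Of the 6 members, Mt1 and Mt2 were at least 2-fold higher at 48 h above 30%, where 32.6% of all genes compared were, and 1 member, Slc30a10, was at least 2-fold lower, where 5.62% were. Under 2%, Mt1 and Mt2 were again higher (26.7% of all genes) and all 4 transporters were at least 2-fold lower (22.5% of all genes). These calls chose the members or come from the same contrast, so nothing is read from the counts.

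Mt2 followed Mt1 at a lower level. Above 30% it went from 1.90 CPM (0.95 to 3.41, 11 UMIs) to 136 CPM (126 to 146, 694 UMIs), and under 2% from 3.58 CPM (3.17 to 4.02) to 202 CPM (187 to 219). The log2 ratios were 6.16 (5.31 to 7.17), or 71.4-fold, above 30% and 5.82 (5.61 to 6.03), or 56.5-fold, under 2%, at ranks 38 and 31. Because a UMI marks a molecule at its 3′ end whatever the transcript length, the UMIs of the pair can be set side by side. Mt1 made up 80.3% (79.0 to 81.6) of their sum above 30% and 84.9% (83.8 to 86.0) under 2% at 48 h, and 76.6% (62.0 to 87.7) and 83.3% (81.4 to 85.1) at 0 h. The intervals of this share overlapped between the libraries in both sets, and Mt1 was the more abundant of the pair in every set with more than 10 UMIs. The other metallothionein genes Mt3 and Mt4 had 0 UMIs in the barcodes above 30% of both libraries.

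**Figure D1:**
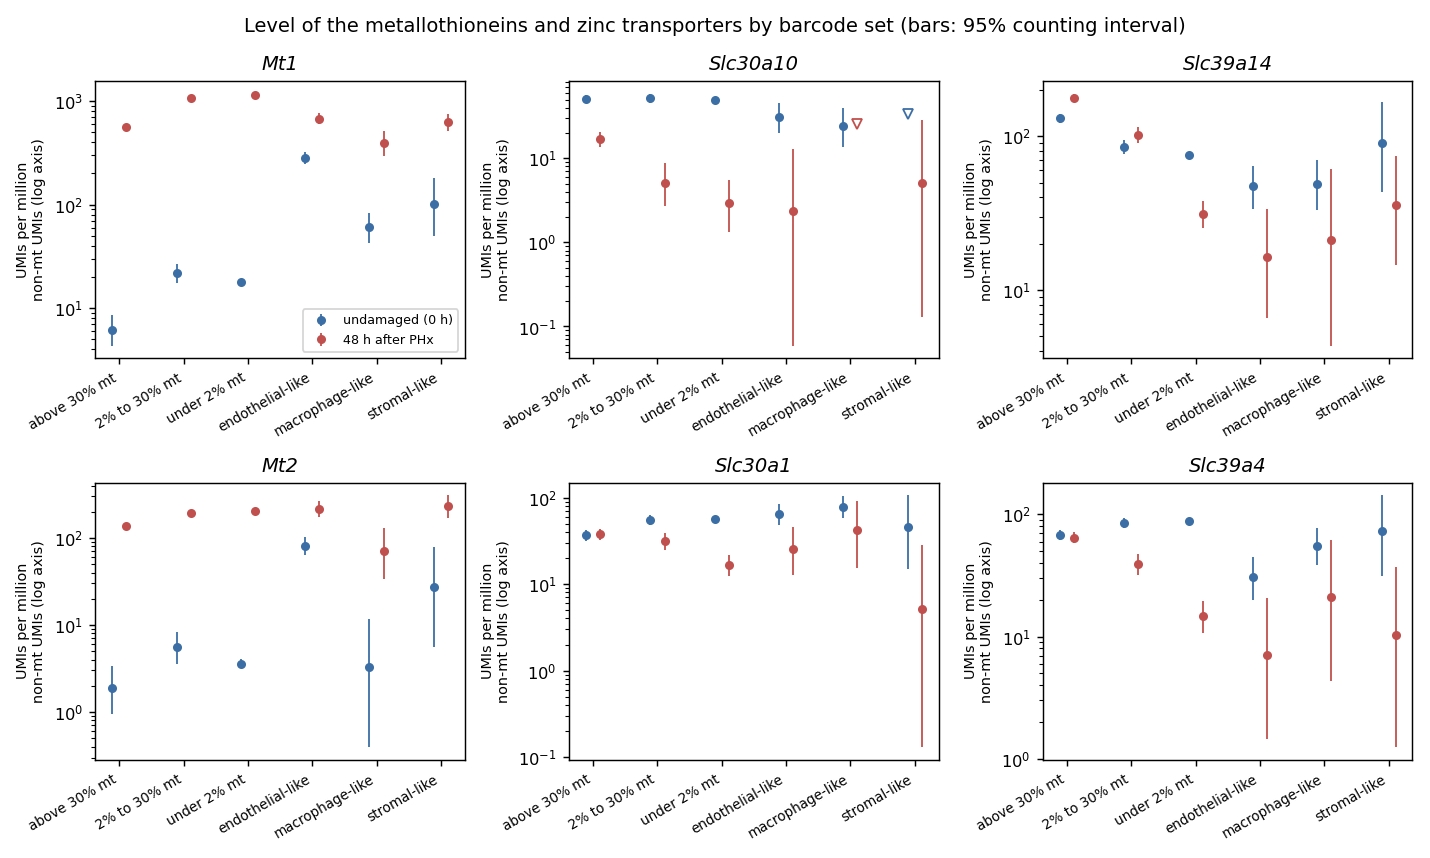
Level of each member in CPM of non-mitochondrial UMIs (log axis) in 6 barcode sets of the undamaged (blue) and PHx48h (red) libraries, with bars for the 95% counting interval and open triangles for the upper limit where no UMI was counted. Mt1 and Mt2 lie higher at 48 h in every set drawn, most so in the sets made by mitochondrial share, where Mt1 moved from 6.23 to 556 CPM above 30%, while Slc30a10 lies lower at 48 h in each set with UMIs in both libraries. No Slc30a10 UMI was counted in the undamaged stromal-like set or in the macrophage-like set at 48 h.

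Against the set under 2%, the barcodes above 30% held less Mt1 in both libraries. The log2 difference was −1.52 (−2.04 to −1.04) at 0 h, beside a median of −0.07 over all genes, and 10.8% of genes were at least 2-fold lower. At 48 h it was −1.03 (−1.10 to −0.96), beside a median of 0.62 over all genes and 7.06% of genes at least 2-fold lower. The corresponding value of Mt2 at 48 h was −0.57 (−0.73 to −0.41). Along finer steps of mitochondrial share at 48 h, Mt1 stood at 1177 CPM in barcodes below 0.5%, between 880 and 1118 CPM in the steps up to 30%, at 626 CPM in the step just above 30% and at 446 CPM above 75%. Mt1 was thus lower in all 4 steps above 30% than in any step below it. Within the barcodes above 30% at 48 h, 4 equal groups of rising depth held 479, 650, 567 and 540 CPM of Mt1, all below the 947 to 1251 CPM of such groups under 2%.

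**Figure D2:**
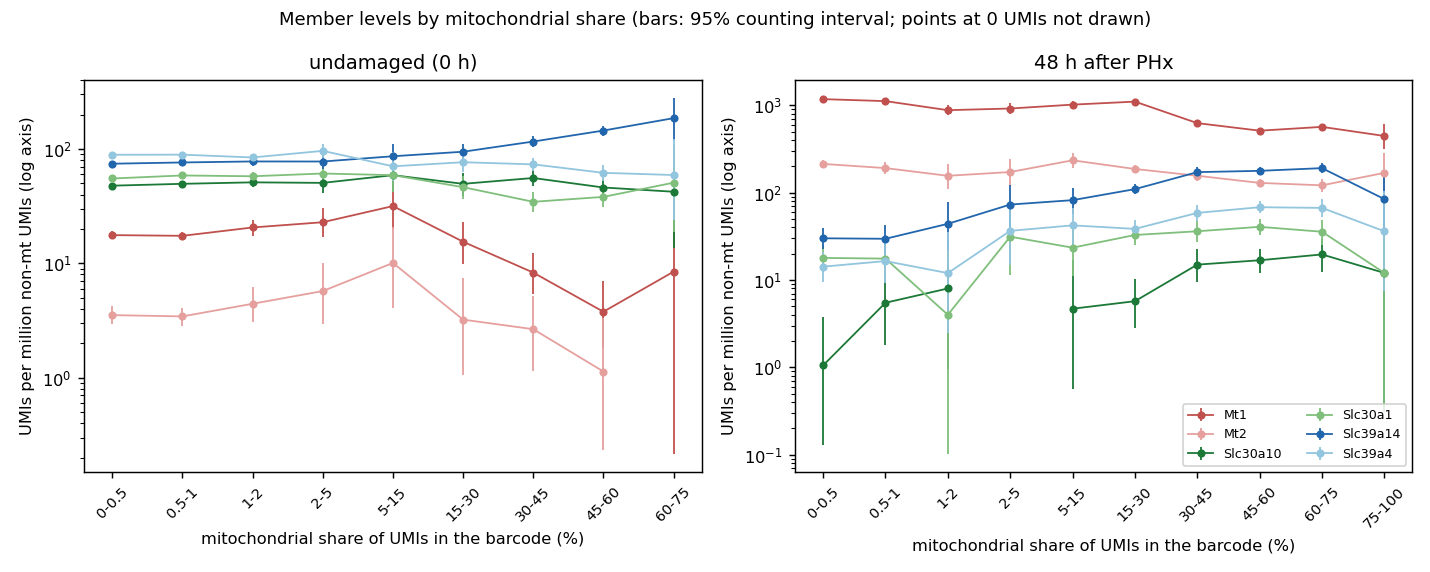
Level of members in CPM of non-mitochondrial UMIs (log axis) in steps of mitochondrial share (percent of all UMIs of a barcode, horizontal axis), with 1 panel per library, 1 colour per gene, bars for the 95% counting interval and no point where a step held no UMI. At 48 h Mt1 went from 1177 CPM in the lowest step to 446 CPM in the highest, whereas Slc39a14 went from 30.04 CPM in the lowest step to 191 CPM at 60% to 75%.

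Barcodes of other cell classes carried metallothionein transcripts already at 0 h. Endothelial-like barcodes, 295 in the undamaged library, held 283 CPM of Mt1 (248 to 321, 239 UMIs) and 81.7 CPM of Mt2 (63.6 to 103). Macrophage-like barcodes held 60.1 CPM of Mt1 (42.3 to 82.9, 37 UMIs), stromal-like barcodes 100.05 CPM (49.9 to 179, 11 UMIs) and T or NK-like barcodes 40.5 CPM (13.1 to 94.5, 5 UMIs). Endothelial-like barcodes were thus the highest at 0 h, and the intervals of the other 3 classes overlapped each other. The log2 difference of endothelial-like barcodes from those under 2% was 3.99 (3.78 to 4.19), or 15.9-fold, at 0 h, where 49% of genes were at least 2-fold higher in the endothelial-like barcodes. For T or NK-like barcodes the same Mt1 difference was 1.18 (−0.44 to 2.41), so their level is not told apart from that set. Mt2 had only 2 UMIs in macrophage-like, 3 in stromal-like and 0 in T or NK-like barcodes.

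The endothelial-like barcodes at 0 h came from 2 clusters. The cluster led by Dnase1l3, Aqp1 and Clec4g (200 barcodes) held 279 CPM of Mt1 (233 to 331), and the one led by Dcn (95 barcodes) held 288 CPM (236 to 348), so both contributed alike within their intervals. Dcn and Ecm1, both among the leading genes of the latter, are stromal markers in the lists used here. The endothelial-like barcodes at 0 h held 3819 CPM of stromal and 2602 CPM of macrophage markers. The part of such RNA in their Mt1 level was not tested. A UMI of Mt1 was found in 45.4% of endothelial-like barcodes at a median depth of 2433 UMIs, against 2.57% of barcodes under 2% at 1413 UMIs. After each barcode was thinned to 500 UMIs the shares were 12.3% and 0.880%. Of the undamaged barcodes above 30%, 3795 of 3870 reached this depth, as did every barcode of the other sets. The 3 sets made by mitochondrial share in this library themselves held at most 21.6 CPM of Mt1.

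At 48 h the endothelial-like barcodes no longer held the highest level. Endothelial-like barcodes (61) held 674 CPM of Mt1 (599 to 757), stromal-like barcodes (31) 621 CPM (515 to 742) and macrophage-like barcodes (22) 393 CPM (297 to 510). All 3 lay below the 1135 CPM of the barcodes under 2%, and the endothelial-like difference on the log2 scale was −0.75 (−0.93 to −0.58). The intervals of endothelial-like and stromal-like barcodes overlapped each other, and that of the macrophage-like barcodes lay below both. Against the barcodes above 30%, endothelial-like Mt1 was 0.28 (0.10 to 0.45) higher at 48 h, beside a median of 0.63 over all genes, while at 0 h it had been 5.51 (5.0 to 6.05) higher, or 45.4-fold.

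The 48 h over 0 h ratio of Mt1 on the log2 scale was 1.25 (1.0 to 1.51), or 2.38-fold, in endothelial-like barcodes, beside a median of 0.18 over all genes. It was 2.71 (2.08 to 3.35), or 6.53-fold, in macrophage-like and 2.63 (1.74 to 3.67), or 6.2-fold, in stromal-like barcodes. The macrophage-like clusters at 0 h were led by C1qa, C1qb and Clec4f and by Cd5l, Wfdc17 and C1qc. At 48 h the macrophage-like cluster was led by Lyz2, Cd74 and Tyrobp. An undamaged cluster of 50 barcodes led by Cd74 and H2-Ab1 stayed unnamed and was not among them. The macrophage-like ratio may thus set different cells side by side, which was not tested. Over the other classes as a whole, Mt1 went from 172 to 608 CPM, a ratio of 1.82 (1.60 to 2.03), and Mt2 from 43.7 to 194 CPM, a ratio of 2.15 (1.73 to 2.57). The mix of classes differed between the libraries. At 0 h 240 of 637 barcodes were macrophage-like, 51 stromal-like and 51 T or NK-like, and at 48 h 22, 31 and 0 of 114. The part of this mix in the pooled ratios was not tested. Mt1 and Mt2 were both at least 2-fold higher, as were 20.2% of all genes compared in these classes, and all 4 transporters were at least 2-fold lower, as were 14.3%. The intervals of the Mt1 ratio in these classes thus lay far below those of the sets made by mitochondrial share, which started from lower levels. Mt1 was abundant in the sets made by mitochondrial share at 48 h, and the endothelial-like barcodes held 29815.8 CPM of hepatocyte markers then, against 91208 CPM under 2%, so the part of hepatocyte RNA in their 48 h level was not tested.

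**Figure D3:**
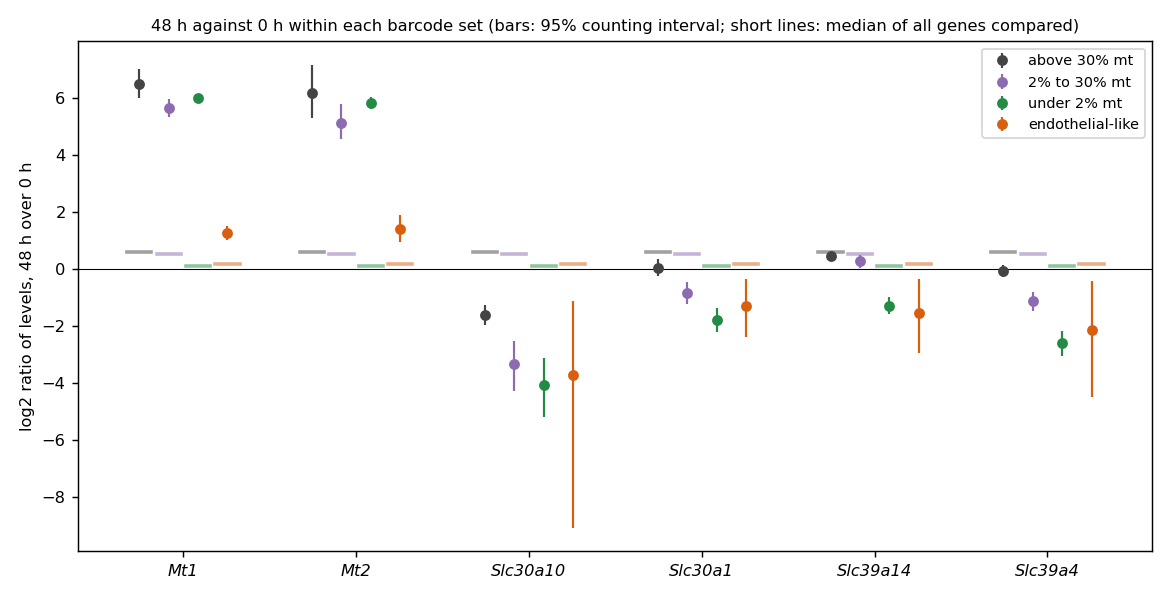
The 48 h over 0 h log2 ratio of each member in the 3 sets made by mitochondrial share and in endothelial-like barcodes, with bars for the 95% counting interval and short lines for the median over all genes compared in that set. Mt1 lies at 6.48 above 30%, 5.99 under 2% and 1.25 in endothelial-like barcodes, and the transporters lie at or below the median of the set in those 3 (Slc39a14 above 30% is 0.44 by total UMIs and −0.12 under TMM scaling, Slc30a1 0.05 and −0.51).

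Slc30a10 was the member that stood at least 2-fold lower at 48 h in all 3 sets made by mitochondrial share. It went from 51.1 CPM (45.4 to 57.2, 295 UMIs) to 16.9 CPM (13.5 to 20.8, 86 UMIs) above 30%, and from 48.9 CPM (47.4 to 50.5) to 2.94 CPM (1.35 to 5.59, 9 UMIs) under 2%. The log2 ratios were −1.60 (−1.96 to −1.25), or 3.03-fold lower, and −4.06 (−5.19 to −3.13), or 16.6-fold lower. At 2% to 30% it went from 51.6 to 5.12 CPM (13 UMIs at 48 h), and in that set 29.8% of all genes were at least 2-fold higher and 7.83% lower. At 0 h the set above 30% and the set under 2% differed by 0.06 on the log2 scale, and at 48 h the first was 2.52 (1.53 to 3.69) higher, beside a median of 0.62 over all genes and 35.7% of genes at least 2-fold higher. In the other classes Slc30a10 went from 27.2 CPM (46 UMIs) to 2 UMIs at 48 h, a ratio of −3.38 (−6.46 to −1.44) relative to 0 h.

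Slc30a1, the plasma membrane zinc exporter, had overlapping levels in the libraries above 30%, at 36.5 CPM (31.8 to 41.8) at 0 h and 37.8 CPM (32.7 to 43.5) at 48 h. The log2 ratio of 0.05 (−0.24 to 0.34) lay 0.54 below the median gene of the set. Under 2% it went from 57.1 to 16.7 CPM (12.4 to 21.9, 51 UMIs), a ratio of −1.77 (−2.20 to −1.38). The endothelial-like barcodes held 64.0 CPM (48.1 to 83.4) at 0 h and 25.8 CPM (11 UMIs) at 48 h. The macrophage-like barcodes held 78.0 and 42.1 CPM (6 UMIs at 48 h), and the interval of their ratio, −0.89 (−2.41 to 0.34), spans 0. The value above 30% turned to −0.51 under TMM and −0.48 under median-of-ratios scaling, so no direction is given for it there. At 48 h the barcodes above 30% held more than those under 2% by 1.18 (0.73 to 1.66) on the log2 scale, and at 0 h the same difference was −0.64 (−0.85 to −0.44).

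Slc39a14 differed between the sets in both libraries. Above 30% it stood at 131 CPM (122 to 140) at 0 h and at 178 CPM (166 to 189) at 48 h, and under 2% at 75.6 and 31.1 CPM (25.1 to 38.0, 95 UMIs). The log2 ratio was 0.44 (0.30 to 0.58) above 30% by total UMIs, which lies 0.15 below the median gene and turned to −0.12 under TMM scaling and −0.09 under median-of-ratios scaling, and −1.28 (−1.59 to −0.99) under 2%. Slc39a14 was higher at higher mitochondrial shares in both libraries. At 0 h it went from 74.4 CPM in barcodes below 0.5% to 186 CPM (22 UMIs) at 60% to 75%, and at 48 h from 30.04 CPM to 191 CPM in the same steps, then stood at 84.4 CPM above 75%. In the 4 depth groups above 30% at 48 h it lay between 166 and 186 CPM.

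Slc39a4, a plasma membrane zinc importer known mainly from intestinal zinc uptake, held 67.8 CPM (61.3 to 74.9) at 0 h and 64.7 CPM (57.9 to 72.0) at 48 h above 30%. The intervals overlapped, and the log2 ratio was −0.07 (−0.28 to 0.15), 0.66 below the median gene, and −0.63 under TMM scaling. Under 2% it went from 88.7 CPM to 14.7 CPM (10.7 to 19.7, 45 UMIs), a ratio of −2.59 (−3.05 to −2.17). At 2% to 30% it went from 85.2 to 39.0 CPM, a ratio of −1.13 between the other two. The difference of the set above 30% from the set under 2% was −0.39 (−0.54 to −0.24) at 0 h and 2.14 (1.68 to 2.62) at 48 h.

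Over the other cell classes as a whole, the importers were lower at 0 h than in the sets made by mitochondrial share. Slc39a14 went from 49.6 to 22.2 CPM (84 and 17 UMIs) and Slc39a4 from 44.9 to 10.46 CPM (76 and 8 UMIs). Slc30a1 was not lower than in those sets at 0 h, and went from 63.8 to 23.5 CPM (108 and 18 UMIs). For the 4 transporters the hepatocyte RNA in these barcodes, given above as marker sums, moved with the levels, since both were lower at 48 h, and its part in them was not tested. The mix of classes also differed between the libraries, as given above, and its part was likewise not tested.

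Single barcodes above 30% at 48 h differed in Mt1 beyond counting error. The quartiles of their Mt1 level were 228, 453 and 765 CPM, the 90th percentile was 1195 CPM, and 130 of the 765 had no UMI. The spread beyond counting error, as a coefficient of variation, was 68.9% above 30%, 45.6% under 2% and 83.8% at 2% to 30%. For Mt2 it was 90.3%, 83.1% and 103%. Under 2% only 5 of the 508 barcodes had no Mt1 UMI, and the 10th and 90th percentiles were 436 and 1822 CPM, 4.18-fold apart. The part of free RNA in these counts was not tested. The clusters of barcodes up to 30% at 48 h that passed as hepatocyte-like, 7 in number, held between 911 and 1308 CPM of Mt1, and the unnamed cluster of 28 barcodes led by Spp1 held 876 CPM (808 to 950). The highest 1% of barcodes carried 9.13% of the Mt1 UMIs above 30% and 5.53% under 2%.

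At equal depth the difference between the sets remained. After thinning to 500 UMIs, an Mt1 UMI was found in 23.4% of barcodes above 30% and in 41.6% under 2% at 48 h, against 0.223% and 0.880% at 0 h. The unthinned shares were 83.0%, 99.0%, 0.853% and 2.57%, at the median depths given above. The corresponding shares were 28.5% in endothelial-like and 19.3% in macrophage-like barcodes at 48 h, at median depths of 6295 and 5193.5 UMIs. No class measured here is known to lack Mt1, so no background share can be given for it.

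For the sum of Mt1 and Mt2 at 48 h, the median barcode stood at 562 CPM above 30%, 988 CPM at 2% to 30% and 1144 CPM under 2%. The highest single barcodes reached 4393, 7808 and 7922 CPM in the same order. Above the upper 0.1% point of the Poisson distribution at the level of the set lay 24 barcodes above 30%, where counting error alone would give 0.440, and 18 under 2%, where it would give 0.338. Below the lower 0.1% point lay 9 and 4 barcodes. In the undamaged library the median barcode held no UMI in any of the 3 sets, and 51 barcodes under 2% lay above the upper 0.1% point against 22.9 from counting error.

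**Figure D4:**
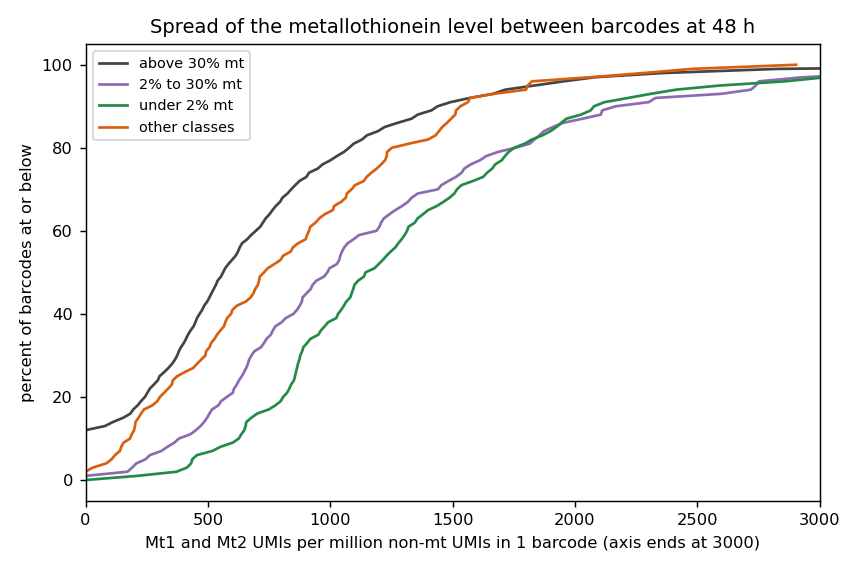
Percent of barcodes (vertical axis) at or below a summed Mt1 and Mt2 level in CPM of non-mitochondrial UMIs (horizontal axis, cut before the highest barcodes) at 48 h, with 1 line per barcode set. The line of barcodes above 30% lies furthest to the left, with a median barcode of 562 CPM, and that of barcodes under 2% to the right up to its median of 1144 CPM and beyond.

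Mt1 and Mt2 varied together between barcodes only in part. Pearson's r of their levels at 48 h was 0.236 over 765 barcodes above 30%, 0.304 over 508 under 2% and 0.575 over 199 of 2% to 30%, and Spearman's rho was 0.230, 0.0836 and 0.445. The barcodes of a set share their library, and the levels of each barcode share its depth. Over the barcodes above 30%, the residuals left after depth was accounted for had a correlation of 0.39 between Mt1 and Mt2, and no other gene with a mean of at least 0.2 UMI went above 0.235 with their sum. The 5 closest were Ttr, Rplp1, Hamp, Gsta3 and Fabp1, from 0.235 down to 0.193, which is too weak to call a pattern. In the undamaged library no gene went above 0.066 (Mgst1). The correlations of Slc39a14 and Slc39a4 with the pair were 0.012 and 0.004.

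Across 16 groups made of set, zone and library, the genes whose log2 level was most like the mean of Mt1 and Mt2 were 2700094K13Rik (r = 0.96), Tubb4b (0.96), Mlf2 (0.95), H2-T22 (0.95) and Fis1 (0.95) of 5432 genes. These groups come from only 2 libraries, so the likeness mostly measures a 48 h level above the 0 h level. Over the same groups Slc30a10 stood at −0.74, Slc39a4 at −0.66, Slc30a1 at −0.51 and Slc39a14 at −0.30.

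Zones of the liver lobule run from periportal, where blood enters, to perivenous, where it leaves. Barcodes were ordered by the perivenous share of their UMIs from zonal genes and cut into 3 equal parts. Zonal genes left out of the ordering followed it above 30%. The perivenous genes Glul and Cyp2a5 were higher in the perivenous part by 4.17 and 4.23 on the log2 scale at 0 h and by 3.22 and 3.90 at 48 h, and the same difference of the periportal gene Ctsc was −2.04 and −2.92. Under 2% at 0 h the same ordering gave 0.06 for Glul and −0.04 for Cyp2a5, and at 48 h 0.74 and 0.80. Of the 8 periportal genes left out of the ordering, 4 were higher on the perivenous side in each library under 2%, among them Cps1 by 0.42 at 48 h, so no zone is read under 2% in either library. Above 30% all 8 were lower on the perivenous side by point value in both.

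At 48 h above 30%, Mt1 declined toward the portal side. The perivenous, middle and periportal parts held 682, 640 and 423 CPM (247, 246 and 246 barcodes). The perivenous over periportal log2 ratio was 0.69 (0.55 to 0.82), beside a median of 0.08 over all genes. Of all genes, 91.4% had a ratio at or below that of Mt1, and 6.57% of 7728 genes were at least 2-fold apart. The perivenous and middle parts overlapped in their intervals (637 to 728 and 601 to 681), and the periportal part lay below both. Mt2 stood at 147, 154 and 116 CPM, with a ratio of 0.33 (0.05 to 0.61).

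The parts differed in depth, with medians of 3767, 4793 and 6517.5 UMIs from perivenous to periportal. When barcodes were divided at their median depth, the Mt1 ratio was 0.83 in the deeper and 0.40 in the shallower barcodes, while that of Mt2 turned to −0.38 in the shallower ones. At 0 h the Mt1 ratio was 2.04 (0.32 to 4.13) on 12 and 4 UMIs in the outer parts, where 13.7% of genes were at least 2-fold apart, so its size is not fixed at this depth. Barcodes of 2% to 30% gave 0.18 at 48 h and −0.04 at 0 h. In that set at 48 h, all 8 left-out perivenous genes were higher and all 8 periportal genes lower on the perivenous side, as they were above 30%. Mt1 there stood at 1205, 880 and 1064 CPM from perivenous to periportal, with the middle part lowest. At 0 h, 6 of the 8 periportal genes were lower on the perivenous side at 2% to 30%. The same ordering under 2% at 48 h, which is not read as zones, gave 1139, 1149 and 1120 CPM of Mt1, a ratio of 0.02 (−0.09 to 0.14).

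Slc30a10 had the opposite slope above 30% at 48 h, with 6.25, 15.8 and 23.7 CPM (8, 25 and 52 UMIs) from perivenous to periportal. Its ratio was −1.92 (−3.21 to −0.84), and 0.492% of genes had a ratio at or below it. At 0 h the same gene stood at 40.9, 54.7 and 51.9 CPM, a ratio of −0.34, so that the 3 parts were closer at 0 h. The importers and Slc30a1 were flatter at 48 h, with ratios of −0.24 (−0.50 to 0.02) for Slc39a14, −0.39 (−0.84 to 0.04) for Slc39a4 and −0.14 for Slc30a1.

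**Figure D5:**
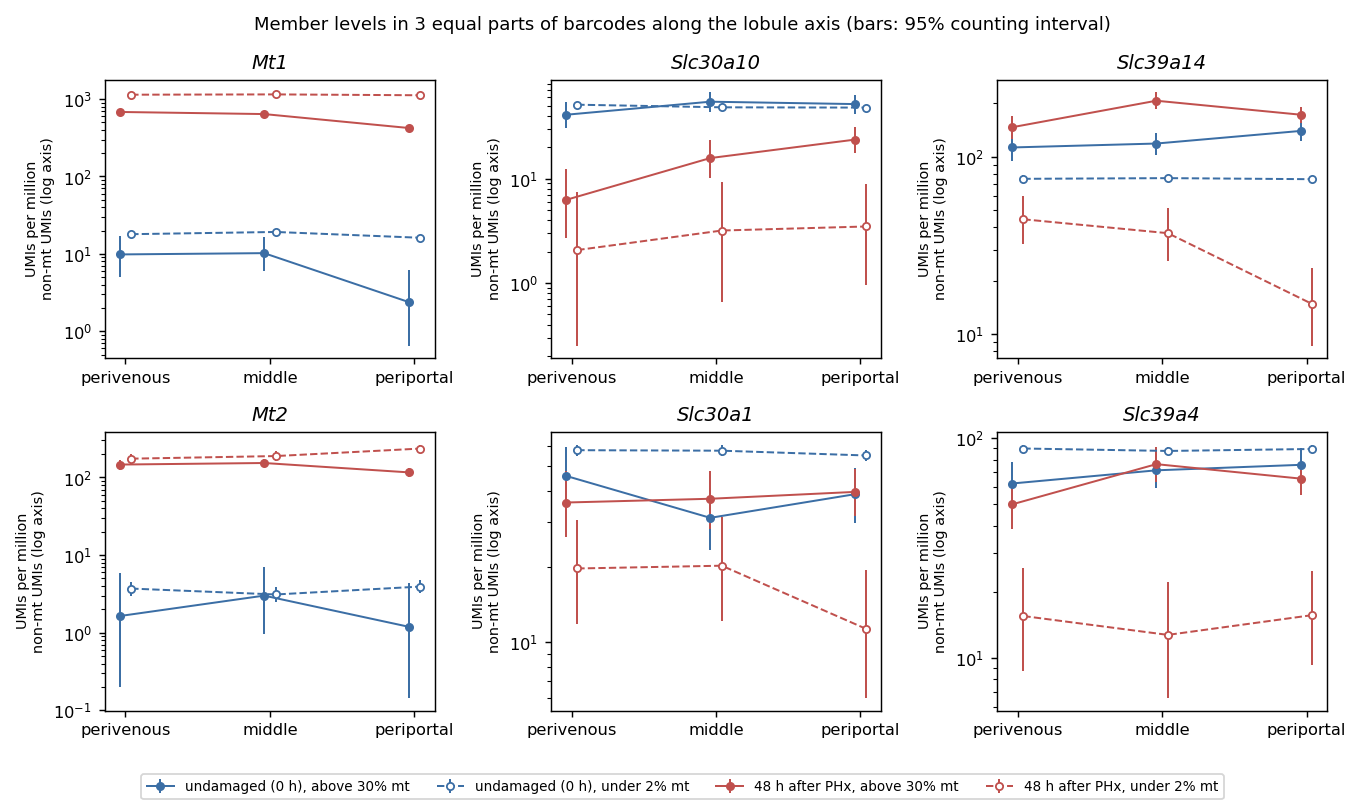
Level of members in CPM of non-mitochondrial UMIs (log axis) in the perivenous, middle and periportal parts of the barcodes, by set and library, with bars for the 95% counting interval. Filled points with solid lines are barcodes above 30% and open points with dashed lines those under 2%, whose parts are not read as zones, and above 30% at 48 h Mt1 went from 682 to 423 CPM and Slc30a10 from 6.25 to 23.7 CPM between the perivenous and the periportal part.

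The wider zinc transporter families were not higher at 48 h as the metallothioneins were. Of 7 SLC30 genes compared above 30%, none was at least 2-fold higher and 1, Slc30a10, was lower (32.6% and 5.62% of all genes), with a median log2 ratio of 0.05 against 0.59 over all genes, and their summed level was 211 CPM at 0 h and 214 CPM at 48 h. Of 8 SLC39 genes, 0 were higher and 0 lower, with a median of −0.23 and summed levels of 560 and 538 CPM. Under 2% the families were lower, with 5 of 7 SLC30 genes and 5 of 7 SLC39 genes at least 2-fold down (22.5% of all genes) and medians of −1.24 and −1.31 beside 0.09 over all genes. In the other classes 2 of 7 and 3 of 11 were lower (14.3% of all genes), and 1 SLC39 gene was higher (20.2%).

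Above 30%, 3 of 13 copper and iron genes were at least 2-fold higher, below the 32.6% of all genes, and 0 lower, with a median of 0.16. Ftl1, the ferritin light chain, went from 873 to 6415 CPM (log2 ratio 2.88), Fth1, the heavy chain, from 626 to 3242 CPM (2.37) and the copper chaperone Atox1 from 156 to 499 CPM (1.68). Under 2%, 3 of 13 were higher and 6 lower, against 26.7% and 22.5% of all genes.

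Among regulators known to act on metallothionein genes, 1 of 8 was at least 2-fold higher above 30%, below the 32.6% of all genes, and 0 were lower. This was Mtf1, which encodes MTF-1 and went from 6.92 to 14.9 CPM (1.11). Of the glucocorticoid-responsive genes, 5 of 11 were higher and 0 lower (32.6% and 5.62% of all genes), with a median of 0.83. Per1, a clock gene, went from 1.04 to 24.9 CPM (4.58), and the other 4 were Sgk1 (2.72), Fkbp5 (2.58), Pck1 (1.51) and Tat (1.34). Under 2%, 1 of 9 was higher and 2 were lower (26.7% and 22.5% of all genes), with a median of −0.31 beside 0.09 over all genes.

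Of the acute-phase genes, 6 of 15 were at least 2-fold higher above 30% and 2 lower (32.6% and 5.62% of all genes), with a median of 0.33, below the 0.59 of all genes. Lcn2, an iron-siderophore binding protein, went from 5.36 to 645 CPM (6.91), and the others named were Saa2 (5.62), Saa1 (4.21) and Orm2 (3.13). The members that were lower were Lbp (−1.40) and the fibrinogen chain Fga (−1.10). Under 2%, 7 of 14 were higher and 4 lower (26.7% and 22.5% of all genes), with a median of 0.79 beside 0.09 over all genes. Immediate-early genes, which tissue dissociation is known to raise, were also higher above 30% in 6 of 9 and lower in 1 (32.6% and 5.62% of all genes), with a median of 1.32. Fos (3.99), Btg2 (2.26), Ier2 (1.72) and Jun (1.54) were the highest of these and Myc (−1.29) the one lower. Under 2%, 4 of 7 of these genes were higher and 0 lower (26.7% and 22.5% of all genes). The part of dissociation in the metallothionein levels was not tested.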

How the data were processed

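Per the labels, hepatocytes of mouse liver at 0 h and 48 h after PHx were run on the 10X Genomics platform, 1 library per time. The submitters' processing notes name Cell Ranger and mm10, and the version and annotation are not given in the sources used here. The authors deposited raw UMI counts, whole numbers for 27998 genes, for 59202 and 1586 barcodes, with 96118593 and 18198719 UMIs. All deposited barcodes were used, those below the clustering filter included, and mitochondrial counts were left out of denominators.

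Levels are UMIs summed over the barcodes of a set scaled to 1000000 non-mitochondrial UMIs (CPM), with exact Poisson intervals, and ratios have exact conditional binomial intervals, both at 95% and for counting error only. A gene entered a comparison at 10 CPM or more in either library, and a count took those at least 2-fold apart. Other classes came from Leiden clusters (resolution 1.0, 2000 variable genes, 30 components, 15 neighbours) of barcodes with at least 1000 UMIs, 500 genes and at most 30% mitochondrial UMIs, named from fixed markers (at least 3, each in 20% of barcodes and 3 times the level of the rest). Zones used barcodes with at least 20 zonal UMIs. Spread between barcodes is the coefficient of variation left after Poisson variance, and thinning used the exact hypergeometric probability at 500 UMIs. Residuals of single barcodes were Pearson residuals given depth. No test across samples was possible with 1 library per group.

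The members and lists were chosen with earlier results of these data known. Besides the 6 members, genes were named by a rule: in each list up to 4 genes with the highest and 4 with the lowest ratio above 30% among those at least 2-fold apart, and the 5 genes most like Mt1 and Mt2 over groups and over barcodes above 30%. Leading genes of clusters and the zonal check genes shown were named after their values were seen. Alternatives were the denominator, mitochondrial limits, depth, doublet calls, cluster resolution, the most extreme barcodes, thinning, zone settings and TMM or median-of-ratios scaling. The ratio, spread and thinning steps were tested on simulated data. Python 3.11.15, numpy 2.4.6, scipy 1.17.1, pandas 2.3.3, scanpy 1.11.5, igraph 0.11.9, matplotlib 3.10.9, R 4.3.3 and edgeR 4.0.16 (TMM factors only) were used.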

Additional observations from a re-analysis of the deposited data

Results flagged for a closer look

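Some differences between sets had opposite directions at 0 h and 48 h, by point value and with counting intervals away from 0, and the change in direction itself was not tested. Mt1 was higher in the other classes than in barcodes under 2% at 0 h, by 3.27 on the log2 scale, and lower at 48 h, at −0.90. The endothelial-like value against barcodes under 2% went from 3.99 to −0.75, the macrophage-like one from 1.75 to −1.53 and the stromal-like one from 2.49 to −0.87. Macrophage-like barcodes against those above 30% went from 3.27 to −0.50. The macrophage-like clusters of the libraries were led by different genes, so their values at 0 h and 48 h may come from different cells.

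Of the transporters, Slc39a4 and Slc30a1 turned the other way, from lower to higher above 30%. Slc39a14 and Slc30a10 did not turn against barcodes under 2%. Slc39a14 was higher above 30% at both times, by 0.79 and 2.51, and Slc30a10 went from 0.06 (−0.11 to 0.23) to 2.52. Against barcodes under 2%, Slc39a4 went from −0.39 at 0 h to 2.14 at 48 h and Slc30a1 from −0.64 to 1.18. Against barcodes of 2% to 30%, Slc39a4 went from −0.33 to 0.73. The 48 h over 0 h ratio of Slc39a14 was 0.44 above 30% (−0.12 under TMM scaling) and −1.28 under 2%. The perivenous over periportal ratio of Mt2 at 48 h was 0.33 above 30% and −0.43 under 2%, where the ordering is not read as zones. None of these differences was tested, since each time point had 1 library.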

How the results depend on the processing

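No paired analysis was possible because each group had 1 library, and no result carries a test. Of the alternative values of the main results, 163 stayed within the limit set for them, 25 moved beyond it and 1 reversed. For the other results the numbers were 934, 142 and 1. The main results in this tally include the counts of members at least 2-fold higher or lower at 48 h. Above 30% all 15 alternatives of each count stayed, and under 2% all 17 of each. In the other classes 14 of 14 stayed for higher and 13 of 14 for lower. The members were chosen on this contrast, so no stability is read from that part of the tally. The limit was the counting interval for levels, ratios and shares of barcodes, and a fixed fold for counts and shares of genes. Any change of a spread between barcodes counted as a move, however small. The 48 h over 0 h log2 ratio of Mt1 above 30% was 7.19 with a limit of 50% (5 UMIs at 0 h), 9.57 without the 1% of barcodes highest in Mt1 and Mt2 (4 UMIs at 0 h, since that step removes most barcodes with a UMI), 5.92 under TMM and 5.95 under median-of-ratios scaling, and that of Mt2 was 9.55 without that 1% (1 UMI at 0 h). Under 2%, the Mt1 ratio was 6.54 without that 1%, 5.78 without the 20 most abundant genes and the pair in the denominator, 5.70 under TMM and 5.78 under median-of-ratios scaling. In the other classes it was 2.12 without the undamaged endothelial-like cluster led by Dcn, chosen after seeing the data, and with a filter of 50 CPM 1 member was lower in place of 4. The Mt1 difference of barcodes above 30% from those under 2% was, at 0 h, −2.39 over all UMIs, −2.33 with a limit of 50% and −4.07 without the highest 1%, and, at 48 h, −2.16 over all UMIs, −0.80 with a limit of 20% and −1.13 with 50%. The spread of Mt1 between barcodes above 30% was 52.9% without the highest 1% and 71.3% without barcodes of at least 3 other-class markers, and under 2% it was 38.1% and 45.7%. The zone ratio of Mt1 at 48 h was 0.54 with 2 parts, 0.18 in barcodes of 2% to 30%, 0.83 in the barcodes deeper than the median and 0.40 in the shallower ones (both chosen after seeing the data), and at 0 h it turned to −0.039 in barcodes of 2% to 30%. That of Mt2 at 48 h turned to −0.38 in the shallower ones (37 UMIs). The values over all UMIs add mitochondrial UMIs to the denominator, which by itself lowers a level more above 30% than under 2%. Apart from this and the effect of removing barcodes with UMIs, the cause was not tested. Also chosen after seeing the data, barcodes of 1000 to 4000 UMIs gave 6.54 for Mt1 and 5.82 for Mt2 above 30%, and leaving out the barcodes shared by both libraries gave 6.47 and 6.15. Depth limits the undamaged levels above 30%, which rest on 36 UMIs of Mt1 and 11 of Mt2.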
